A study of Mus musculus with 4 samples.

Results

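The immediate early and dissociation stress genes are a set of 38 mouse genes that cells transcribe within minutes of a stimulus or an insult. Members were chosen by gene symbol from a list, and all 38 were found among the 32285 genes measured in each of the 4 libraries. The list holds 9 genes of the AP-1 family and its partners, 6 Egr and Nr4a factors, 3 Klf factors, 10 other early response genes, 6 feedback inhibitors and 4 inducible heat shock genes. RNA was read by 3′ single-cell sequencing, with unique molecular identifiers (UMIs), in stroma and endothelium sorted from the femurs of C57BL/6 mice of genotype Rag2-/-gammac-/-, which lack lymphocytes. The age of the animals is not given in the labels. Ctrl came from mice without a graft, Sham_D40 from mice injected with PBS and taken at day 40, and Graft_D19 and Graft_D40 from mice whose femur had received DOHH2, a cultured line of B cells from a human follicular lymphoma, taken at day 19 and day 40. Each group was 1 library, and the labels do not say how many animals it pools. No difference between groups was tested, intervals cover counting error only, and animal, day and library cannot be told apart from the group. Every library was made from bone and marrow digested with warm enzymes before sorting, so transcripts made in the animal and during digestion cannot be told apart.

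Immediate early genes are switched on by transcription factors that are already present in the resting cell, so no new protein is needed. Growth factor and stress signals reach them through the ERK and p38 kinases, which act on serum response factor with its Elk partners and on CREB. Most of the products are themselves transcription factors (Fos and Jun proteins pair to form AP-1), and another group shuts the response down again, such as the phosphatase Dusp1 and the mRNA decay factor Zfp36. In bone marrow and other solid tissues the same genes are known to respond to warm enzymatic digestion, and the heat shock genes answer to unfolded protein through heat shock factor.

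The promoter sequences of 5 members on which the comparisons turn are shown to display the regulatory elements of the class. RefSeq windows on build GRCm38.p6 were matched for 33 of the 38 members, and the 250 bases before the transcription start are printed 5′ to 3′ on the gene's own strand, none of them inside an annotated exon. Capitals mark, on either strand, the CRE core TGACG bound by CREB and ATF proteins, the heat shock element GAANNTTC, the TATA motif TATAA, the AP-1 site TGANTCA and the CArG box bound by serum response factor, of which the last pair found no match in these 5. The Fos window is chr12:85473640-85473889 on the plus strand, the Jun window chr4:95052223-95052472, the Klf4 window chr4:55532476-55532725, the Hspa1a window chr17:34972157-34972406 and the Hspa1b window chr17:34959239-34959488, these 4 on the minus strand.
Fos: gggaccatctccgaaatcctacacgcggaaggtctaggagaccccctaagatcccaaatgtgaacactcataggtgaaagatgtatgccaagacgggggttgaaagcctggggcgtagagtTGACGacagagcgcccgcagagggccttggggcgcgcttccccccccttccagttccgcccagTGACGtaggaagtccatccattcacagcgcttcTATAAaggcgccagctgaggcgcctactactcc
Jun: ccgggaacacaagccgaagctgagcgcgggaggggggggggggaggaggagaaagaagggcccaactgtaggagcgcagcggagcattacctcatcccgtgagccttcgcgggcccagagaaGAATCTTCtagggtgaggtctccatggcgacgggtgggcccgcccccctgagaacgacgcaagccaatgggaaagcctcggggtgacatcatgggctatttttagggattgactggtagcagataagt
Klf4: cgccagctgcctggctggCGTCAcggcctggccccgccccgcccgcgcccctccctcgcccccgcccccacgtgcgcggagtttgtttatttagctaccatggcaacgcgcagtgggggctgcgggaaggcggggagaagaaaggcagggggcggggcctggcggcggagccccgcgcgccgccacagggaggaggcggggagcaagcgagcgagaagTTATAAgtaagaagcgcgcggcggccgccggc
Hspa1a: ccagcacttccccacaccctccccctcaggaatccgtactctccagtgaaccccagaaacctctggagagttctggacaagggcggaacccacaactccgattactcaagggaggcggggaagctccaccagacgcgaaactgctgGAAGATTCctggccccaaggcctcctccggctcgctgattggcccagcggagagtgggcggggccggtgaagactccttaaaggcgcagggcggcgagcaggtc
Hspa1b: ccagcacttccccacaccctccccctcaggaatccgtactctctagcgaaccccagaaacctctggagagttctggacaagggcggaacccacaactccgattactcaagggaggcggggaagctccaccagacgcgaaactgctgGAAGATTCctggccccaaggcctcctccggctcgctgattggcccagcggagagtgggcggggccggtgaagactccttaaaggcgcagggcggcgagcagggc
Among the 33 members matched, 17 held the CRE core in a window, against 19.8% of all 27025 genes with windows of this length. The TATA motif was found for 11 members against 25.8% of genes and the CArG box for 3 against 1.62%. The heat shock element was found for 4 against 7.73% and the AP-1 site for 1 against 7.82%. Bases further upstream were not searched, so elements there are not counted. Fosl1, Egr1, Egr3, Ier2 and Myc had no window. In Klf4 a TATA match on each strand overlaps the other. Hspa1a and Hspa1b, neighbouring genes for near-identical HSP70 chaperones, had windows identical at 247 of 250 positions (98.8%). The sources used here do not say how reads common to both genes were assigned, so the split between the pair is uncertain.

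After filtering, 4071, 4526, 4811 and 4864 cells remained in Ctrl, Sham_D40, Graft_D19 and Graft_D40, and any 2 libraries shared 4 to 9 of their barcodes. Ctrl was the shallowest, with a median of 3553 UMIs per kept cell against 8619 to 9792.5 in the others. Cells were placed in classes by counting marker genes, with no member among the markers: 2422 to 3437 cells per library passed as mesenchymal stroma, 1172 to 1471 as endothelium, 13 to 38 as haematopoietic, and 2.36% to 4.73% met none of these gates. The sort took Cd51+ Cd200+ stroma and Cd31+ Sca1+ endothelium, so class sizes also follow the gates. None of the 16 pan-mesenchymal markers in stroma or the 16 pan-endothelial markers in endothelium was at 0 in any library. The gates used these same markers, so this was nearly fixed in advance and is no check of the classes. Within the stroma a LepR-like class (the perivascular Cxcl12-producing cells of marrow) held 1535 to 2227 cells per library, a chondrocyte-like class 258 to 1137, an osteolineage-like class 131 to 277 and a fibroblast-like class 54 to 248. Within the endothelium a sinusoidal-like class held 531 to 1119 cells and an arterial-like class 185 to 481. Levels are given as CPM, the UMIs of a gene per 1000000 gene UMIs summed over a class. A call of higher or lower needs a ratio of at least 1.5-fold on the log2(CPM + 1) scale and a mean over both libraries of at least 5 CPM, and describes 2 libraries.

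Chondrocyte-like cells, which make cartilage matrix, carried the most member RNA in every library. Members made up 1.98%, 1.63%, 1.70% and 0.904% of their UMIs in Ctrl, Sham_D40, Graft_D19 and Graft_D40. The LepR-like class stood at 0.325%, 0.490%, 0.655% and 0.521% in the same order, lowest in Ctrl and highest in Graft_D19. Sinusoidal-like cells, which line the thin-walled marrow venous bed, stood at 0.995%, 0.991%, 0.759% and 0.547%, with both grafted libraries below both ungrafted ones. The chondrocyte-like class had the highest level of the 6 classes for 22 of 35 measured members in Ctrl, 21 of 36 in Sham_D40, 24 of 35 in Graft_D19 and 15 of 33 in Graft_D40. Over all genes it was the highest class for 12.6%, 12.3%, 11.8% and 12.8%.

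**Figure D1:**
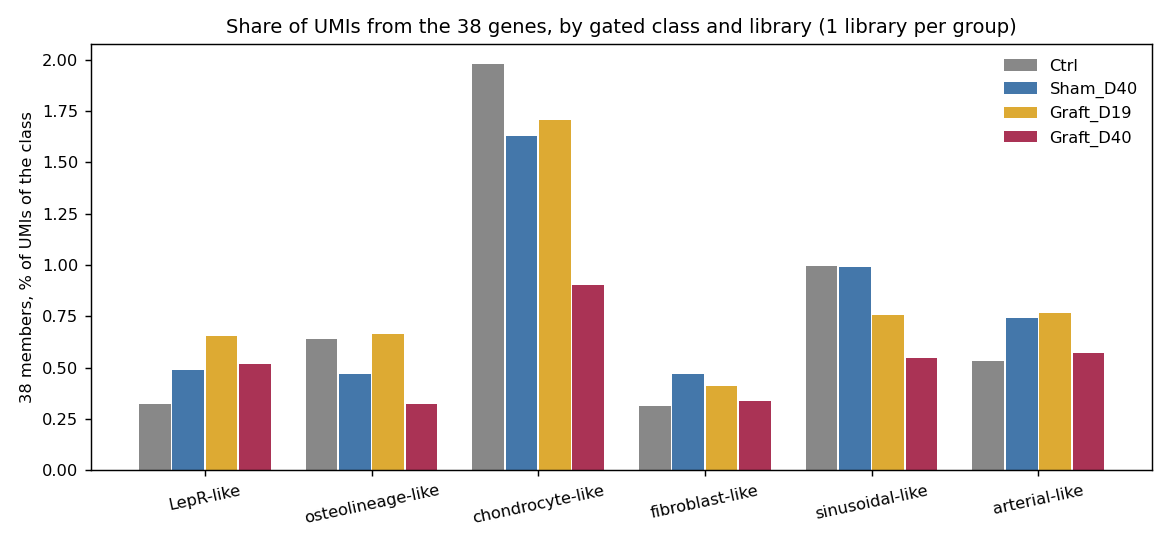
Bars give the percent of all UMIs of a gated class that came from the 38 members, with 1 library per group and bars starting at 0. Chondrocyte-like cells were the highest class in each library (0.904% to 1.98%), and Graft_D40 was the lowest library in chondrocyte-like, sinusoidal-like and osteolineage-like cells.

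At day 40 the chondrocyte-like cells of the grafted library had lower levels of nearly the whole set than those of the sham library. Of 35 measured members 29 were lower and 0 higher in Graft_D40, where 6.35% of all genes were lower and 3.05% higher. The median log2 ratio was -0.97 over the members and -0.08 over all genes. Graft_D40 was the lowest of the 4 libraries for 30 of 35 members, against 19.1% of all genes, so the comparison did not rest on a high Sham_D40 alone. The low group took in all 7 measured AP-1 genes, all 6 Egr and Nr4a factors and all 5 measured feedback inhibitors.

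Among the AP-1 genes, Fos in chondrocyte-like cells stood at 4012 CPM (Ctrl), 2653 (Sham_D40), 2929.8 (Graft_D19) and 1355 (Graft_D40). Graft_D40 was the lowest library and 1.96-fold lower (1.93 to 1.99) than Sham_D40. Its partner Jun stood at 2040.0, 1954, 2127 and 1110.4 CPM in the same order of libraries, and Junb, which can restrain Jun, at 2660.0, 1658, 1828 and 1001 CPM. For both genes Graft_D40 was the single low library. Atf3, a stress-induced member of the ATF/CREB family, had the widest gap of the AP-1 genes: it stood at 365, 145, 306 and 29.3 CPM and was 4.94-fold lower (4.51 to 5.4) than Sham_D40. Sham_D40 was itself below Ctrl and Graft_D19 for this gene, so the ungrafted pair also differed. Fosb, a Fos paralogue, broke the order, at 513, 1208, 1117 and 695 CPM, with Ctrl and not Graft_D40 the lowest. The AP-1 genes Fosl1 and Maff were under 7 CPM in every library.

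Egr1, a zinc-finger factor and a standard readout of ERK signalling, stood in chondrocyte-like cells at 1343 CPM (Ctrl), 1360.1 (Sham_D40), 1394 (Graft_D19) and 713 (Graft_D40). The first 3 libraries were close to one another, and Graft_D40 was 1.91-fold lower (1.86 to 1.95) than Sham_D40. Its relative Egr2, a direct follower of ERK input, stood at 117, 95.7, 108 and 32.2 CPM, again with 1 low library. Nr4a1, an orphan nuclear receptor induced by many stimuli, stood at 50.4, 83.5, 85 and 30.6 CPM and was 2.73-fold lower (2.47 to 3.01). Egr3 and Nr4a2 also differed across the ungrafted pair: Sham_D40 was the highest library for both, and the Ctrl and Graft_D40 values of Egr3 (12.4 and 17.4 CPM) both lay below that of Graft_D19.

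Of the 3 Klf factors 1 was lower. Klf4, a zinc-finger factor, stood at 526, 879, 639 and 408 CPM and was 2.15-fold lower (2.09 to 2.22), whereas Klf2 (424, 218, 329.8 and 162 CPM) and Klf6 (86.8, 72.8, 130.2 and 52.4 CPM) stayed inside the 1.5-fold limit against Sham_D40. For all 3 the lowest library was Graft_D40. Of the other early response genes, 7 of 10 were lower. Ier2, a nuclear protein of the early serum response, stood at 1639, 896, 1170.4 and 571 CPM, and Gadd45g, a stress sensor that binds p38 kinase activators, at 388, 163, 181 and 66.2 CPM. For both, Sham_D40 was already below Ctrl, and Graft_D40 was lower again. Myc (18.2, 19.6, 28.7 and 21 CPM) and Btg2, an antiproliferative p53 target (500.1, 789.6, 744 and 555 CPM), were not called.

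All feedback inhibitors measured in chondrocyte-like cells were on the low side. Dusp1, a phosphatase that inactivates p38, JNK and ERK, stood at 444, 467, 365 and 191 CPM and was 2.45-fold lower (2.35 to 2.55) than in Sham_D40. Zfp36 stood at 322, 275, 393 and 153 CPM, Nfkbia (the NF-kB inhibitor, itself an NF-kB target) at 134, 118, 114 and 51.7 CPM and Socs3, the brake on IL-6 signalling, at 222, 199, 272 and 93.9 CPM. For each of these 4 genes Graft_D40 was the lowest library and the other 3 lay within 1.5-fold of one another. Dusp2 was under 2 CPM in every library. Of the heat shock genes, Dnajb1, a co-chaperone of HSP70, stood at 327, 244, 281 and 112 CPM, Hspa1a at 136, 114, 71.8 and 37.5 CPM and Hspa1b at 145, 64.3, 29.8 and 16 CPM. The last pair was ordered by library, from Ctrl down through Sham_D40 and Graft_D19 to Graft_D40. Hsph1, the HSP110 nucleotide exchange factor, did not share the pattern, at 22.3, 33.9, 23.6 and 35.7 CPM.

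**Figure D2:**
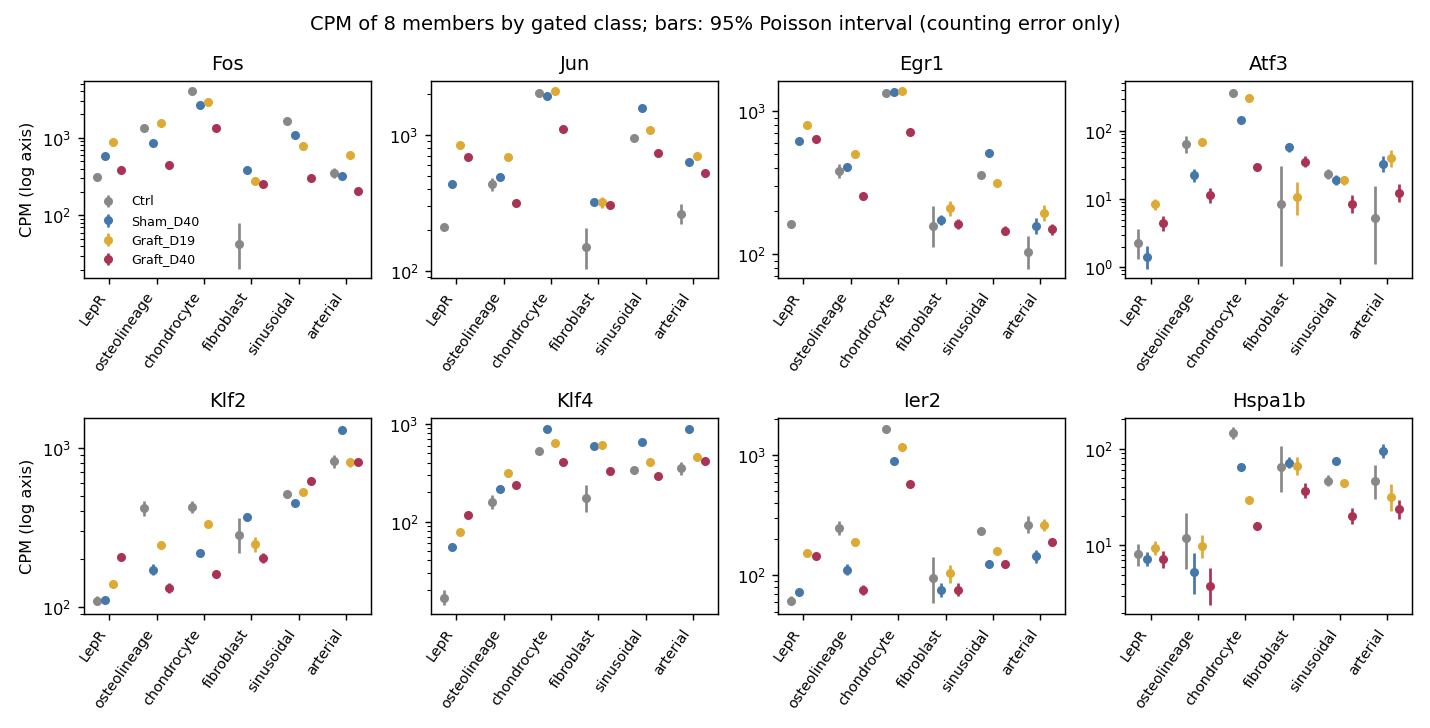
Points give the CPM of 8 members in 6 classes on a log axis, coloured by library, and bars the 95% Poisson interval, which covers counting error only. Fos, Jun and Egr1 in chondrocyte-like cells had Graft_D40 as the single low library, whereas Klf4 in LepR-like cells had its highest value there (117 CPM).

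The count of low members in chondrocyte-like cells was between 26 and 30 over 13 other settings, and 26 with Ctrl as the comparator (11.5% of all genes). Among cells with no UMI of Col10a1 or Ihh, markers of late cartilage, it was 30 of 35. These cells made up 251 of 400 chondrocyte-like cells in Sham_D40 and 551 of 1137 in Graft_D40. Chondrocyte-like Ctrl cells were shallow, with a median of 1509.5 UMIs against 21371.5 to 24340 in the other libraries. The summed level of 17 chondrocyte markers was 64201, 63177, 90782 and 68217 CPM in Ctrl, Sham_D40, Graft_D19 and Graft_D40, and that of 24 haematopoietic markers 46.3, 12.3, 30.9 and 74.0 CPM, with 4 to 14 of them at 0. Ptprc, the pan-leukocyte marker CD45, stood at 0, 0.11, 3.19 and 20.6 CPM and was highest in Graft_D40. The part of these in the result was not tested.

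Sinusoidal-like endothelium showed the second large difference at day 40. Of 35 measured members 20 were lower and 0 higher in Graft_D40 than in Sham_D40, where 6.46% of all genes were lower and 7.09% higher. The median was -0.80 for the members and 0.03 for all genes. Graft_D40 was the lowest library for 26 of 35 members, against 18.5% of all genes. Fosl1, Egr2 and Nr4a3 were under 5 CPM in every library and were not measured here.

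Fos in sinusoidal-like cells stood at 1643 CPM (Ctrl), 1072 (Sham_D40), 783 (Graft_D19) and 304 (Graft_D40). The values did not overlap between ungrafted and grafted libraries, and Graft_D40 was 3.53-fold lower (3.34 to 3.73) than Sham_D40. Junb followed the same order of libraries, at 1081, 751, 548 and 296 CPM, and so did Gadd45g at 594, 316, 177 and 78.7 CPM. For Gadd45g the step from Sham_D40 to Graft_D40 was 4.02-fold lower (3.62 to 4.47), and Graft_D19 lay between them. Egr1 was highest in Sham_D40, at 357, 514, 315 and 146 CPM, and 3.52-fold lower (3.25 to 3.81) in Graft_D40. Jun (957, 1576, 1094 and 739.8 CPM) and Klf4 (334, 649, 404 and 295 CPM) were also highest in Sham_D40. Their Graft_D40 values were within 1.5-fold of Ctrl, so the size of the day 40 gap for this pair depended on which ungrafted library was used. Gadd45b, related to Gadd45g, stood at 39.4, 59.9, 42.6 and 11.5 CPM, with Graft_D40 alone low.

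The HSP70 pair was lower in sinusoidal-like cells too, Hspa1a at 28.4, 41.8, 30.7 and 13.2 CPM and Hspa1b at 46.8, 74, 44 and 20.3 CPM, and Zfp36 at 245, 150.4, 127 and 72 CPM. Zfp36 and Socs3 (117, 81.4, 64.8 and 41.5 CPM) each went down in steps from Ctrl through Sham_D40 and Graft_D19 to Graft_D40. Other members did not share the low values. Klf2, the main flow-induced factor of endothelium, stood at 513, 451, 528 and 618 CPM, Klf6 at 135, 138, 137 and 144 CPM and Nfkbia at 209.8, 186, 183 and 189 CPM. None of these 3 reached 1.5-fold at day 40, and Klf2 had its highest value in Graft_D40. Ier5, an early gene that acts with heat shock factor, was level at 203, 234, 221 and 211 CPM.

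In sinusoidal-like cells the low count ranged from 18 to 22 over 13 settings, was 17 with Ctrl as comparator (10.2% of all genes) and 20 among cells with a UMI of Stab2, a scavenger receptor of sinusoids. Marker levels also differed between these libraries. The summed level of the 12 sinusoidal markers was 31226, 24487, 17434 and 12569.5 CPM in Ctrl, Sham_D40, Graft_D19 and Graft_D40. That of 17 chondrocyte markers was 65.6, 214, 288 and 457 CPM, and that of 24 haematopoietic markers 737, 437, 447 and 370.2 CPM, with 5 to 9 of them at 0. Haemoglobin transcripts stood at 90.4, 94.6, 46.9 and 26.5 CPM. The part of these in the result was not tested.

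LepR-like stroma did not share the low values of day 40. In Graft_D40 8 of 31 measured members were higher and 3 lower than in Sham_D40, where 6.9% of all genes were higher and 4.14% lower. The median was 0.10, against 0.06 for all genes. The 8 higher members were Jun, Maff, Egr2, Egr3, Nr4a1, Klf2, Klf4 and Ier2, and the 3 lower ones Fos, Fosb and Gadd45g. The 7 members that missed the 5 CPM mean were Fosl1, Atf3, Nr4a2, Nr4a3, Csrnp1, Dusp2 and Dusp5.

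Jun in LepR-like cells stood at 210.3 CPM (Ctrl), 435 (Sham_D40), 853 (Graft_D19) and 688 (Graft_D40). Both grafted libraries lay above both ungrafted ones, and Graft_D40 was 1.58-fold higher (1.54 to 1.63) than Sham_D40. Ier2 divided the libraries in the same way, at 61.7, 72, 154 and 144 CPM, and was 2.01-fold higher (1.87 to 2.15). Klf4 stood at 16.7, 55.5, 77.4 and 117 CPM, which put the libraries in the order Ctrl, Sham_D40, Graft_D19, Graft_D40. Klf2 stood at 109.7, 110.1, 139 and 207 CPM, with the ungrafted pair equal and Graft_D40 1.88-fold higher (1.77 to 1.98). Egr2, Egr3, Nr4a1 and Maff were under 10 CPM in every library and under 4 CPM in Sham_D40, so they passed the 5 CPM mean only through Graft_D40 and had to differ. Without them 4 higher members remained. Fos, the usual partner of Jun, went the other way: it stood at 314, 582, 869 and 384 CPM, and Graft_D40 was 1.52-fold lower (1.47 to 1.57) than Sham_D40 but above Ctrl. Fosb (31.2, 266, 359.7 and 168 CPM) had Ctrl far below the other libraries.

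Egr1 in LepR-like cells was low in Ctrl alone, at 162, 619, 802 and 639.7 CPM, and did not differ by 1.5-fold at day 40. Gadd45g, at 227, 201, 181 and 104 CPM, was lowest in Graft_D40, as it was in chondrocyte-like and sinusoidal-like cells. Feedback inhibitors and heat shock genes were within the limit: Dusp1 stood at 67.6, 99.5, 131 and 84.7 CPM, Zfp36 at 92.1, 104, 131 and 87.7 CPM, Nfkbia at 172, 163, 164 and 157 CPM, Socs3 at 159, 210.3, 213 and 141 CPM and Dnajb1 at 33.5, 53.5, 43.2 and 44.8 CPM. Nfkbia varied least, staying between 157 and 172 CPM. Atf3 was under 9 CPM in LepR-like cells of every library, against 29.3 to 365 CPM in chondrocyte-like cells.

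The count of higher members in LepR-like cells was less stable than the counts of low members above. Against Sham_D40 it ran from 4, at a minimum of 20 CPM, to 11, with no minimum, and with Ctrl as comparator it was 14, with 1 lower, where 30% of all genes were higher and 9.99% lower. The summed level of the 14 LepR-stroma markers in these cells was 60773, 65536, 52037 and 37873 CPM in Ctrl, Sham_D40, Graft_D19 and Graft_D40. That of the 17 chondrocyte markers was 269, 760, 771 and 833 CPM, against 63177 to 90782 CPM in chondrocyte-like cells. Haemoglobin transcripts stood at 863, 249.04, 109 and 21.9 CPM, with both grafted libraries below both ungrafted ones. Their part in the result was not tested.

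Arterial-like, osteolineage-like and fibroblast-like cells had fewer low members at day 40 than chondrocyte-like and sinusoidal-like cells. In arterial-like cells 8 of 35 members were lower and 1 higher in Graft_D40 than in Sham_D40, against 6.87% and 8.67% of all genes. Klf4 was 351, 891, 460.0 and 421 CPM there and Klf2 819.9, 1297, 809 and 813 CPM, and for both Sham_D40 was the 1 high library. Hspa1b, at 46.5, 95, 31.6 and 23.7 CPM, was 4.01-fold lower (3.05 to 5.29). With Ctrl as comparator the balance turned, to 11 higher and 7 lower (23% and 14.6% of all genes). In osteolineage-like cells 13 of 30 were lower and 2 higher, against 15% and 2.46% of all genes. Fos was 1319.6, 849.9, 1559 and 452 CPM, with Graft_D40 lowest, and Nr4a2, a nuclear receptor of the same family as Nr4a1, was 10.7, 19.3, 29.8 and 59.6 CPM, with Graft_D40 highest. In fibroblast-like cells 12 of 34 were lower and 1 higher, against 6.62% and 9.56%. With Ctrl as comparator 11 were higher and 5 lower (30.8% and 17.8%), and with each cell thinned to 1000 UMIs 8 were higher and 8 lower than in Sham_D40. When every cell had equal weight the low count was 4 in osteolineage-like and 5 in fibroblast-like cells, so both depended on how the cells were weighted.

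**Figure D3:**
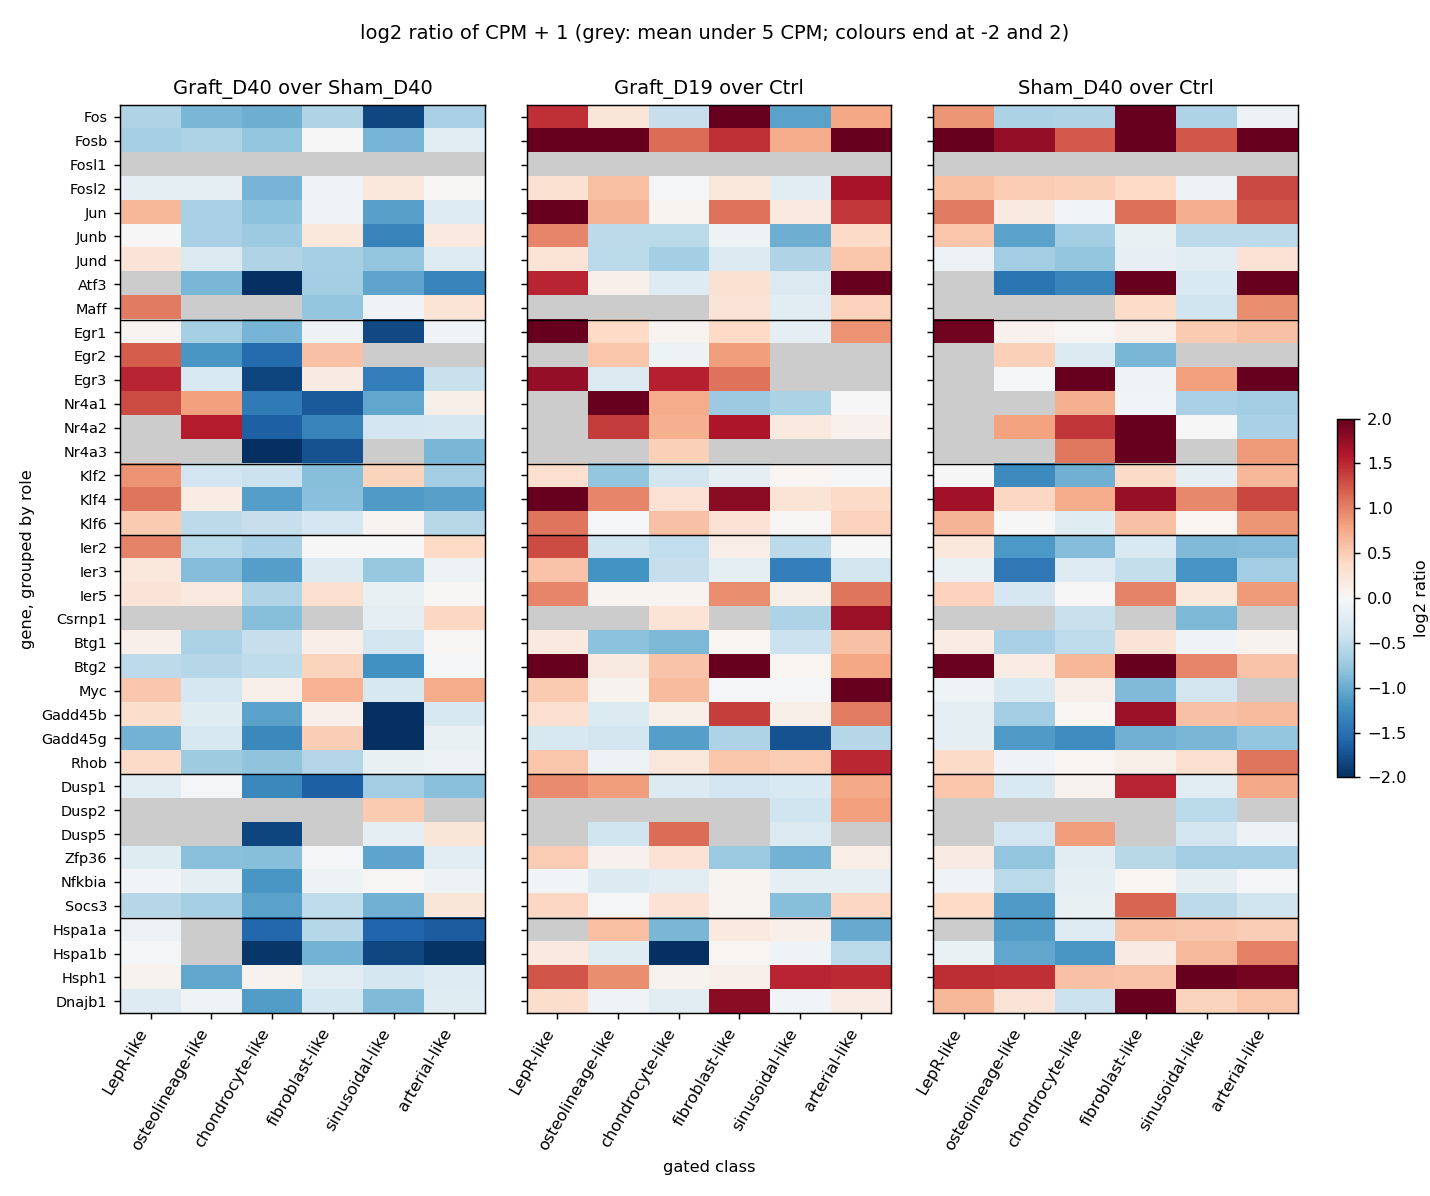
Each square is the log2 ratio of CPM + 1 for a member (rows, grouped by role) in a class (columns), for 3 comparisons. Red is higher and blue lower in the first library named, colours end at -2 and 2, and grey marks a mean under 5 CPM. At day 40 the chondrocyte-like column was blue for nearly all members and the LepR-like column mixed.

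At day 19 many members were higher than in Ctrl in LepR-like stroma. Of 28 measured members 14 were higher in Graft_D19 and 0 lower, against 26.2% and 7.98% of all genes, with a median of 0.76 against 0.27. The members counted were those past the 5 CPM limit, which a gene low in the shallow Ctrl can miss. In Ctrl 26 members reached 5 CPM and in Graft_D19 31. Some of the 28 thus passed the mean only through Graft_D19, and their direction was fixed by that limit. At a minimum of 20 CPM 11 members were higher. By the values given above, Fos was 2.77-fold higher (2.65 to 2.89), Jun 4.06-fold higher (3.85 to 4.28) and Egr1 4.96-fold higher (4.68 to 5.27). The sham library showed part of the same gap. Sham_D40 was also above Ctrl for 10 of 26 members, against 24.5% of all genes, and below it for 0, against 10.1%. With Sham_D40 in place of Ctrl, 5 members were higher in Graft_D19, against 2.28% of all genes, and 0 lower, against 1.88%. These were Jun, Ier2, Ier3, Egr3 and Myc. Egr3 passed the 5 CPM mean only through Graft_D19.

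In sinusoidal-like cells 9 of 34 members were lower and 2 higher in Graft_D19 than in Ctrl, against 7.19% and 19.2% of all genes. Gadd45g was 3.36-fold lower (3.16 to 3.56), Ier3, an early gene that promotes survival, 2.59-fold lower (2.36 to 2.85) (199, 87.9, 77 and 51.6 CPM), Fos 2.1-fold lower (2.03 to 2.16) and Junb 1.97-fold lower (1.9 to 2.05). Fosb and Hsph1 were the 2 higher members, and both were also higher in Sham_D40 than in Ctrl. In chondrocyte-like cells 6 of 35 members were higher and 5 lower than in Ctrl, against 20.1% and 8.97% of all genes, and without the 10 cells with most member UMIs 12 were higher and 4 lower. In arterial-like cells 15 of 33 were higher and 1 lower, against 24.8% and 16%. The median log2 ratio of the members there was 0.56, against 0.59 for Sham_D40 over Ctrl and 0.28 for Graft_D19 over Sham_D40. Arterial-like Ctrl cells were shallow, with a median of 1689.5 UMIs. The summed level of 12 sinusoidal markers in this class was 21392, 11581, 5088 and 6846 CPM in Ctrl, Sham_D40, Graft_D19 and Graft_D40. That of 15 arterial markers was 15470, 12493, 9231 and 11289 CPM. Their part in the result was not tested. Rhob, a small GTPase of endosomes, stood there at 189.8, 401, 544 and 369.6 CPM and Jun at 263, 631, 700.3 and 528 CPM, with Ctrl the lowest library for both.

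The ungrafted pair set the scale for these gaps. Between Sham_D40 and Ctrl, 8 of 35 chondrocyte-like members were higher and 8 lower (background 29% and 10.2%), and in sinusoidal-like cells 8 of 35 were higher and 7 lower (19.9% and 8.74%). In osteolineage-like cells 3 of 32 were higher and 14 lower, in arterial-like cells 17 of 33 higher and 6 lower, and in fibroblast-like cells 13 of 34 higher and 3 lower. For these smaller classes the share of all genes is not given here. The low count of osteolineage-like cells was thus as large between the ungrafted libraries as at day 40. Fosb and Hsph1 had higher levels in Sham_D40 than in Ctrl in 6 of 6 classes, with log2 ratios from 0.57 to 3.05. Both genes were also above Ctrl in Graft_D19 and Graft_D40 in each class, but not always by much. In chondrocyte-like cells Hsph1 was nearly level between Ctrl and Graft_D19, by the values given above. In arterial-like cells its log2 ratio of Graft_D19 over Ctrl turned to -0.33 with the stricter gate. Over all genes, Ctrl was the lowest library for 41.9% (osteolineage-like) to 57.6% (LepR-like), depending on the class. The share of genes with Ctrl lowest in every class at once was not counted. Between the 2 grafted libraries, 29 of 34 chondrocyte-like members were lower in Graft_D40 than in Graft_D19 (4.16% of all genes) and none of them higher (3.2%). The same count was 13 of 34 in sinusoidal-like (3.07%) and 6 of 31 in LepR-like cells (1.88%). This comparison shares the Graft_D40 library with the one against Sham_D40.

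The smaller classes and the pools gave the following counts in the same comparisons. In osteolineage-like cells 21 of 32 members were lower in Graft_D40 than in Graft_D19 and 1 higher (5.71% and 2.4% of all genes). In pooled stroma 20 of 34 were lower and 1 higher (3.02% and 2.28%), and in pooled endothelium 15 of 34 lower and 0 higher (4.6% and 5.96%). Between the ungrafted libraries, pooled stroma had 14 of 34 members higher in Sham_D40 and 0 lower (21.4% and 9.81%), and pooled endothelium 8 of 35 higher and 9 lower (18.9% and 8.38%). With Sham_D40 as comparator for Graft_D19, 11 members were higher and 0 lower in pooled stroma (3.91% and 7.13%), 0 higher and 7 lower in pooled endothelium (2.59% and 3.86%), and 11 higher and 0 lower in osteolineage-like cells (3.14% and 10.6%). Against Ctrl, osteolineage-like cells of Graft_D19 had 9 of 33 members higher and 3 lower (20.8% and 15.1%), and fibroblast-like cells 11 of 33 higher and 3 lower (29% and 17.9%). These counts were unstable. Without the 10 cells with most member UMIs the higher count was 17 in osteolineage-like cells. Among cells with 5000 or more UMIs it was 20 in fibroblast-like cells, where only 14 Ctrl cells were that deep.

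Summed over all stroma, fewer members were called at day 40 than in the chondrocyte-like class. In mesenchymal stroma 7 of 34 members were lower and 0 higher in Graft_D40 than in Sham_D40, against 11.2% and 6.32% of all genes. At day 19 23 of 34 were higher and 0 lower than in Ctrl, against 16.9% and 13.4%. Chondrocyte-like cells, the class richest in members, numbered 258, 400, 759 and 1137 in Ctrl, Sham_D40, Graft_D19 and Graft_D40, and the summed chondrocyte marker level of the pool was 8527, 17435, 41554 and 34102 CPM. Their part in the pooled result was not tested. With every cell weighted equally, 3 members were lower and 2 higher at day 40. In pooled endothelium 21 of 34 were lower and 0 higher at day 40, against 6.78% and 6.38%, and at day 19 6 of 34 lower and 3 higher, against 7.14% and 17.3%. The order of the pools differed between libraries. In Ctrl 22 of 34 members were at least 1.5-fold higher in endothelium than in stroma and 4 lower (25.8% and 21.7% of all genes), and in Graft_D40 9 of 35 were higher and 15 lower (29.8% and 18.6%).

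Genes of the same pathways outside the set were counted from 4 lists. In chondrocyte-like cells at day 40, 10 of 14 measured NF-kB and cytokine feedback genes were lower, 6 of 13 ERK and SRF regulators, 13 of 26 other dissociation response genes and 1 of 16 constitutive and other chaperones, and 1 gene of the 4 lists, the chaperone Hspd1, was higher, where 6.35% of all genes were lower and 3.05% higher. Icam1, a leukocyte adhesion molecule, stood at 9.92, 37.9, 19.3 and 12.3 CPM and Cebpd, an inflammatory transcription factor, at 338, 215, 203 and 114 CPM. The chaperone list thus held few low genes while 3 of 4 inducible heat shock members were low. In sinusoidal-like cells the counts of lower genes were 5 of 16, 3 of 16, 7 of 27 and 0 of 15 in the same order of lists, where 6.46% of all genes were lower. Spry2, a feedback inhibitor of receptor tyrosine kinases, stood there at 74.1, 47.8, 34.3 and 19.4 CPM, and Cebpb, a relative of Cebpd, at 222, 75.3, 58 and 29.9 CPM. Klf10, a TGF-beta response gene, was among 5 genes of the lists that were higher (all genes 7.09%), at 54.4, 56.5, 90.9 and 123 CPM. Ccl2, of the NF-kB and cytokine feedback list, was another, at 0.947, 2.99, 12.2 and 42.4 CPM. It had the widest gap of the lists at day 40 (log2 ratio 3.44), with both grafted libraries above both ungrafted ones. It passed the 5 CPM mean only through Graft_D40.

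In LepR-like cells at day 40, 6 of 27 other dissociation response genes were higher and 3 lower, where 6.9% of all genes were higher and 4.14% lower. Ccn1, a matricellular early gene and YAP target, stood at 83.6, 119, 264 and 295 CPM, with both grafted libraries above both ungrafted ones. Of the NF-kB list 3 of 18 were higher and 3 lower, of the ERK and SRF list 1 and 0 of 16, and of the chaperones 1 and 0 of 16, the last 2 lists below the share of all genes.

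Member RNA was uneven from cell to cell. With each cell thinned to 1000 UMIs, the median share of members in chondrocyte-like cells was 1.6%, 1.1%, 1.4% and 0.6% in Ctrl, Sham_D40, Graft_D19 and Graft_D40, and the upper quartile 2.4%, 2.3%, 2.4% and 1.2%. In sinusoidal-like cells the median was 0.4%, 0.5%, 0.4% and 0.3%, close together, while the 95th percentile was 3.3%, 3.5%, 2.5% and 1.55%. The libraries there differed mainly in their high cells. In LepR-like cells the median was 0.2% in Ctrl and Sham_D40 and 0.3% in both grafted libraries. The 10% of cells with most member UMIs held 40.9% to 51.1% of the member UMIs of LepR-like cells and 40.7% to 50.1% of those of sinusoidal-like cells. In chondrocyte-like cells it held 60.5% in Ctrl and 32.5% to 34.5% in the other libraries. That ranking also follows the depth of each cell. Without the 10 cells with most member UMIs, members still made up 1.60% of chondrocyte-like UMIs in Ctrl, against 1.98% with them.

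**Figure D4:**
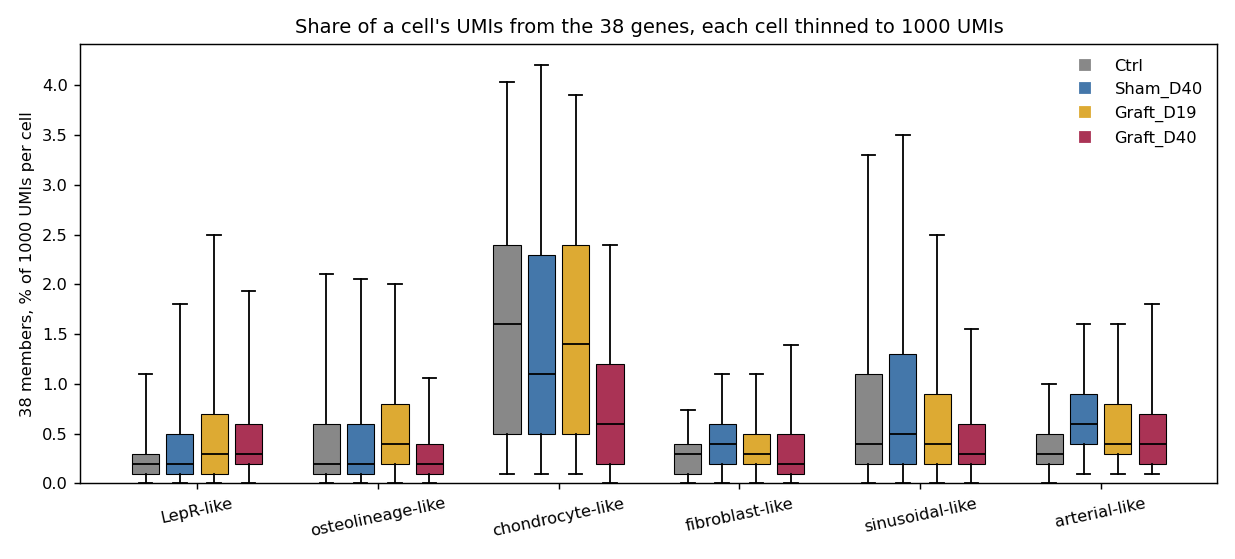
Boxes give the percent of a cell's UMIs from the 38 members after thinning each cell to 1000 UMIs: the box spans the quartiles, the line is the median, and whiskers reach the 5th and 95th percentiles over cells of 1 library. The Graft_D40 box of chondrocyte-like cells (quartiles 0.2% and 1.2%) overlapped those of the other libraries, with each quartile lower.

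The genes whose per-cell counts most resembled the summed members differed by class. Likeness was the mean within-library Pearson r over 4 libraries, as a description, since thinned counts of 1 cell share their total. In mesenchymal stroma the list was led by cartilage genes, Snorc (r = 0.39), Hapln1 (0.37), Mia (0.37), Col2a1 (0.36) and Sox9 (0.36), which set chondrocyte-like cells apart from other stroma. In endothelium it was led by the histone gene H3f3b (r = 0.26), the Notch target Hes1 (0.23), Gm26802 (0.23) and Ppp1r15a (0.23), which restarts translation after stress. In LepR-like cells, a class added to this ranking after the values were seen, it was led by the mRNA decay gene Zfp36l1 (r = 0.24), Ccn1 (0.24) and Cebpd (0.20).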

How the data were processed

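The deposited UMI counts per gene and cell were used as given. The authors' processing used Cell Ranger 3.1.0 on build mm10, per the submitters' processing notes, while the file headers name version 5.0.0. Members and gene lists were chosen with earlier results of these data known. Barcodes with at least 500 genes, at least 1000 UMIs and at most 10% mitochondrial UMIs were kept, and doublets called by Scrublet (scanpy 1.11.5, expected rate 6%) were removed, 44 to 91 per library. The 2 antibody features of Sham_D40 and Graft_D40 were left out of the sums. Stroma needed 5 distinct mesenchymal or chondrocyte markers and 2 times as many as endothelial ones, endothelium the reverse, with at most 4 haematopoietic markers. Subsets took the highest scaled marker score, at least 1.25 times the next, with at least 3 markers detected.

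UMIs were summed per class and library and scaled to CPM. Ratios are on log2(CPM + 1) for members at a mean of 5 CPM or more. Intervals given after folds are exact conditional binomial ones at 95% (Poisson for levels). No test across groups was possible, with 1 library per group, and precision follows the class totals. In each broad class and main comparison the rule named the 4 members most different in each direction at 20 CPM or more and 16 fixed members, and the 3 most different genes of each related list. Any other member printed with values was picked with its values known. Alternatives covered scaling, pseudocount, minimum CPM, gate, doublets, filters, cell weighting, thinning, the top cells and the comparator, and 3 were added after seeing the data: cells with 5000 or more UMIs, chondrocyte-like cells without Col10a1 or Ihh, and sinusoidal-like cells with Stab2. Scripts were tested on simulated data. Python 3.11.15, numpy 2.4.6, scipy 1.17.1, pandas 2.3.3 and matplotlib 3.10.9 were used.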

Additional observations from a re-analysis of the deposited data

Results flagged for a closer look

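Several members had opposite directions in LepR-like stroma and in another class under the same contrast, and each is given here as a log2 ratio of CPM + 1. The difference between the classes was not tested, since each group is 1 library. For Graft_D40 over Sham_D40, LepR-like against chondrocyte-like cells, Jun was 0.66 against -0.81, Ier2 0.99 against -0.65 and Klf4 1.07 against -1.10. In the same pair of classes Nr4a1 was 1.30 against -1.42, Egr2 1.21 against -1.54 and Egr3 1.53 against -1.84. These 3 were under 10 CPM in LepR-like cells. They passed the 5 CPM mean there only through Graft_D40, so their LepR-like direction was fixed by that limit. For the same contrast, LepR-like against sinusoidal-like cells, Jun was 0.66 against -1.09, Klf4 1.07 against -1.13, Nr4a1 1.30 against -1.04 and Egr3 1.53 against -1.38. The LepR-like direction of Nr4a1 and Egr3 was again fixed by the limit. For Graft_D19 over Ctrl, LepR-like against sinusoidal-like cells, Fos was 1.47 against -1.07 and Junb 0.98 against -0.98.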

How the results depend on the processing

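Of the counts of members recomputed, 673 stayed within 1.5 times the reported count and 191 moved beyond it. Of the single-gene ratios, 2924 stayed inside the counting interval of the reported ratio, 905 fell outside it and 14 changed sign. These numbers do not count the ratios that crossed 1.5-fold. The cause of the changes was not tested, beyond what each setting does by construction. The counts below come without the share of all genes under the same setting. They show how stable a count was, and not whether members differed more often than other genes.

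In pooled stroma, Graft_D40 over Sham_D40, 0 members were higher and 7 lower. The higher count was 2 with every cell weighted equally, 2 with each cell thinned to 1000 UMIs, 1 with no minimum CPM, 9 against Ctrl, 8 in LepR-like, 2 in osteolineage-like and 1 in fibroblast-like cells alone. The lower count was 3 weighted equally, 2 thinned, and 3, 13, 29 and 12 in LepR-like, osteolineage-like, chondrocyte-like and fibroblast-like cells alone.

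For Graft_D19 over Ctrl in pooled stroma, 23 were higher and 0 lower. The higher count was 15 thinned, 11 against Sham_D40, and 14, 9, 6 and 11 in LepR-like, osteolineage-like, chondrocyte-like and fibroblast-like cells. The lower count was 3, 5 and 3 in the last 3 of these classes and 1 among cells with 5000 or more UMIs.

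For Sham_D40 over Ctrl in pooled stroma, 14 were higher and 0 lower. The higher count was 9 at a minimum of 20 CPM, 3 in osteolineage-like and 8 in chondrocyte-like cells. The lower count was 1 weighted equally, 2 thinned, 1 scaled by the median of gene ratios, 1 among cells with 5000 or more UMIs, and 14, 8 and 3 in osteolineage-like, chondrocyte-like and fibroblast-like cells. For Graft_D40 over Graft_D19, 1 was higher and 20 lower. The higher count was 0 with the stricter gate, weighted equally, thinned, with a pseudocount of 5 CPM and in chondrocyte-like cells, and 2 with no minimum and in LepR-like and fibroblast-like cells. The lower count was 7 weighted equally, 8 thinned, 6 in LepR-like and 8 in fibroblast-like cells.

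In pooled endothelium, Graft_D40 over Sham_D40 had 0 higher and 21 lower, the higher count being 1 thinned, against Ctrl and in arterial-like cells, and the lower 8 in arterial-like cells. Graft_D19 over Ctrl had 3 higher and 6 lower, the higher count being 0 against Sham_D40, 15 in arterial-like cells and 1 among cells with 5000 or more UMIs, and the lower 10 scaled by the median of gene ratios and 1 in arterial-like cells. Sham_D40 over Ctrl had 8 higher and 9 lower, the higher count being 17 in arterial-like cells and the lower 4 with the stricter gate, 3 weighted equally and 4 thinned. Graft_D40 over Graft_D19 had 0 higher and 15 lower, the higher count being 2 with the stricter gate, 1 thinned and 2 in arterial-like cells, and the lower 9 in arterial-like cells.

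Among ratios past 1.5-fold as reported, the signs that changed were these, as log2 ratios. For Graft_D40 over Sham_D40, Hspa1a in mesenchymal stroma was 0.060 thinned, Atf3 in osteolineage-like cells 0.63 weighted equally and Socs3 0.15 thinned, and in fibroblast-like cells Fos was 0.064 weighted equally and 0.26 thinned, and Myc -0.72 thinned. For Graft_D19 over Ctrl in osteolineage-like cells, Fosl2 was -0.077 weighted equally, Nr4a1 -0.91 thinned, and Klf2 0.080 thinned and 0.26 without the 10 cells with most member UMIs. In fibroblast-like cells Nr4a1 was 1.58 without those 10 cells and Gadd45g 0.10 with the stricter gate, and in arterial-like cells Hspa1a was 1.16 without those 10 cells and Hsph1 -0.33 with the stricter gate.

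The median over members of the percent of cells with a UMI was 13.5%, 35.7%, 39.4% and 39.4% in stroma of Ctrl, Sham_D40, Graft_D19 and Graft_D40, and 5.78%, 6.37%, 9.65% and 7.08% after thinning. In endothelium it was 20.6%, 30.6%, 29.6% and 24.3%, and 7.14%, 6.71%, 6.12% and 4.91% after thinning. Ctrl was the shallowest library, and low members there may pass or miss the minimum by depth. No paired analysis was possible because each group is 1 library and the results come from no test, and for the same reason no replicate could be left out.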
